A study of Mus musculus with 2 samples.

Results

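The H19-Igf2 to Kcnq1 imprinted domain was taken as mouse chromosome 7 from 142555529 to 143523150 (mm10), which reaches 20 kb beyond the outer of its 10 named genes. Of the 57220 CTCF peaks in the list kept at the optimal setting of the irreproducible discovery rate (IDR, a method that keeps peaks whose rank repeats between lists), 46 had their summit in these 967.6 kb. Chromatin was immunoprecipitated with a CTCF antibody from B6NCrl mouse liver at postnatal day 0, in 1 group of 2 replicates with no treatment and no comparison group. Per the labels, pulverized livers from several dissections were pooled, sex was not collected, and a single biosample and donor are named for both replicates. Differences between the replicates may therefore be technical only. The control experiment that the labels name was not analysed here. Replicate, pooled and IDR lists of peaks were analysed, and read counts were not, so the depth of the libraries is unknown. Peak lists of 1 factor give no marker levels, so the tissue label was not checked against the data.

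CTCF recognises a directional DNA motif through its zinc fingers and, with cohesin, anchors chromatin loops. Genes in imprinted domains are expressed mainly from the allele of 1 parent. At H19 and Igf2, CTCF is known to bind the unmethylated maternal copy of the imprinting control region upstream of H19, where it insulates Igf2 from enhancers on the far side of H19, while methylation of CpGs in its sites on the paternal copy keeps it off. The Kcnq1 side of the domain is governed by another control region, at the promoter of the antisense RNA Kcnq1ot1, whose transcription from the paternal copy silences neighbouring genes. The peak lists add up both parental alleles and all cells of the liver, so a weaker signal from fewer bound alleles, from fewer cells or from weaker binding in each cell cannot be told apart.

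The sites upstream of H19 are shown first because they differ from the usual CTCF motif. Each is the best-scoring window of 20 bases within 50 bp of the summit of 1 of the 4 peaks in the first 5 kb upstream of the H19 5' end. All 4 lie on the reverse strand, which is also the strand of H19, and are written 5' to 3' with the 14-base core in capitals.
H19 upstream, at 2.17 kb (chr7:142580306-142580325): atgCCGCGTGGTGGCAGtac
H19 upstream, at 2.63 kb (chr7:142580761-142580780): ctaCCGCGCGGTGGCAGcat
H19 upstream, at 3.65 kb (chr7:142581787-142581806): ttgCCGCACGGCGGCAGtga
H19 upstream, at 3.90 kb (chr7:142582031-142582050): ttgCCGCGTGGTGGCAGcaa

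The cores at 2.17 and 3.90 kb were identical over all 14 bases, the core at 2.63 kb shared 13 of 14 bases with each of them, and the core at 3.65 kb shared 11 with each of them and 12 with the core at 2.63 kb. Each core held CpG dinucleotides, the target of DNA methylation in mammals, with 2, 3, 3 and 2 of them in order of distance from H19. Against the CTCF core consensus they had 3, 3, 4 and 3 mismatches. A scoring matrix of 20 positions, built from CTCF peaks outside the domain, put the 4 windows at percentiles 21.4, 16.3, 11.2 and 21.9 of the best score per peak in the whole list. The windows at 2.63 and 3.65 kb fell below the threshold that 5.00% of windows displaced by 1 kb passed, and the other pair lay above it. The 3 stronger of these peaks are shown whole, on the forward strand, with the same windows in capitals as their reverse complement.
Peak at 2.16 kb (chr7:142580207-142580362): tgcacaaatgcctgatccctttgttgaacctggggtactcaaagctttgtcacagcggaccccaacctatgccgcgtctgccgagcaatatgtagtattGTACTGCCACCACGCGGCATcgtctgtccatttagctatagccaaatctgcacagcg
Peak at 2.63 kb (chr7:142580674-142580852): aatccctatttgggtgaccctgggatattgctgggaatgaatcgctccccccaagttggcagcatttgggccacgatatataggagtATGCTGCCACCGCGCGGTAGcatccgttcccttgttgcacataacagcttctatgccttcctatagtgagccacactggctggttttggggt
Peak at 3.66 kb (chr7:142581742-142581881): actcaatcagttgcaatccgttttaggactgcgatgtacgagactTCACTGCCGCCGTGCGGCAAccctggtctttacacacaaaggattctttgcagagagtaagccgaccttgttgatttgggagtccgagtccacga

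Of the 4 H19 sites, 3 lay under clear peaks and 1 under a weak one. H19 encodes a noncoding RNA, made mainly in fetal and newborn tissues and known to be expressed from the maternal allele. The peak at 2.63 kb had a deposited signal of 163 in the optimal list, with 91.3 in replicate 1 (rank 14806 of 300000 listed peaks) and 69.5 in replicate 2 (rank 18460). The peak at 2.16 kb had 117, with 52.8 in replicate 1 (rank 23056) and 65.1 in replicate 2 (rank 19434). The peak at 3.66 kb had 103, with 49.9 in replicate 1 (rank 23872) and 52.0 in replicate 2 (rank 22691). The rank ranges of the last 2 overlap between replicates, and that of the peak at 2.63 kb lies above both. The scale of the signal is not stated, so ranks within a list are the values to compare. The fourth peak, at 3.87 kb, was among the weakest of the domain, with 12.2 in the optimal list and 14.7 in replicate 1 (rank 44220). In replicate 2 the nearest summit was 211 bp away, at the summit of the peak at 3.66 kb, so the fourth peak has no value there. The intervals of the peaks at 3.66 and 3.87 kb overlap, so their signals may not be separate. The core of the fourth peak is the same as that of the peak at 2.16 kb.

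All peaks were split by matrix score into 10 bins of about equal size. In the bin of the sites at 2.63 and 3.65 kb the median signal was 37.8 (middle 50% from 22.2 to 82.7), and both sites were above that range. In the bin of the sites at 2.17 and 3.90 kb the median was 51.6 (middle 50% from 26.98 to 123.8), with the site at 2.17 kb within that range and the site at 3.90 kb below it. The letters shared by all 4 cores, CCGCNNGGNGGCAG, chosen after these sites were seen, were sought on both strands within 50 bp of every summit. They were found at 127 of 57197 peaks on assembled chromosomes (0.222%) and in 3 windows displaced by 1 kb (0.00525%). In the domain they were found at these 4 peaks only. The 123 other peaks with these letters had a median signal of 223.6, ranging from 16.9 to 566.1, and a median percentile of 80.6 in the whole list. The letters of the H19 sites thus occurred at other peaks of the genome too. These are descriptions of letters under peaks, and neither methylation nor allele was measured.

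**Figure D1:**
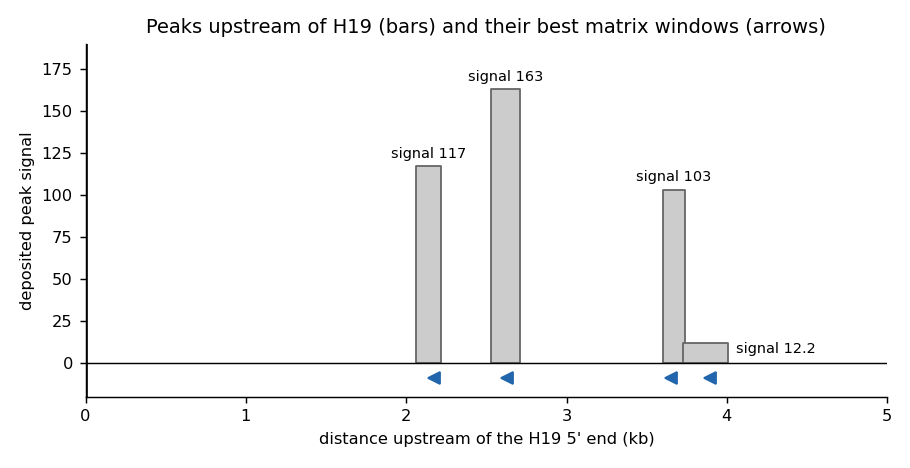
Deposited peak signal of the 4 optimal-list peaks (bars, drawn over their width) by distance upstream of the H19 5' end in kb, with arrows for the best matrix window and its direction. The peaks reach 117, 163, 103 and 12.2, and all 4 arrows point toward H19.

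**Figure D2:**
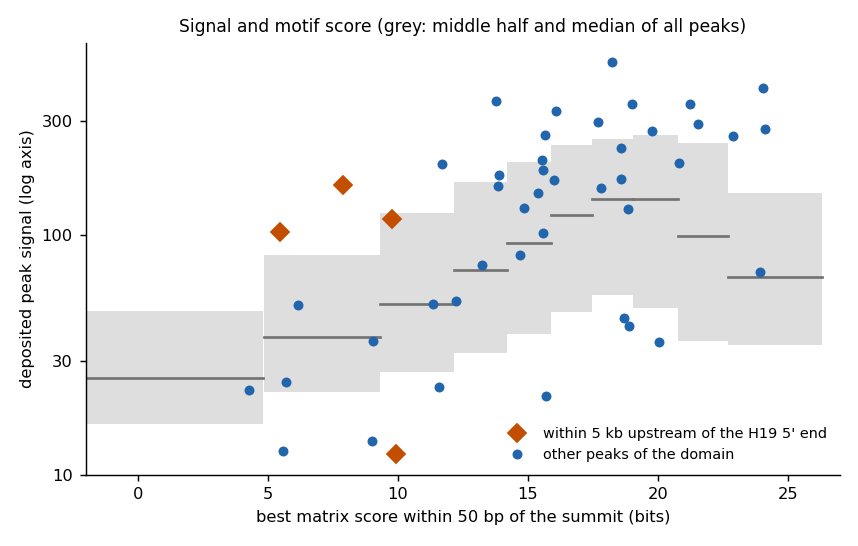
Deposited signal (log axis) against the best matrix score in bits for the 46 domain peaks, with the median and middle 50% of all peaks in each of 10 score bins in grey (the lowest bin runs on beyond the axis). The H19 sites at 2.63 and 3.65 kb stand above the grey range, the one at 2.17 kb within it and the one at 3.90 kb below it.

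The group of H19 peaks was 24.2 kb from the next peak away from Igf2 and 28.5 kb from the next toward Igf2. The median gap between neighbouring peaks on autosomes was 14.3 kb, and several gaps of the domain were longer than these. On the side away from Igf2, the first peak was in an exon of the noncoding gene Nctc1, at -22.3 kb where upstream of the H19 5' end is positive (signal 23.4, ranks 47315 in replicate 1 and 52522 in replicate 2). Toward Igf2, a peak lay in an intron of the noncoding gene Gm33148, 32.6 kb from H19, with a signal of 161 (ranks 16238 and 17145). Its window also carried 2 CpG dinucleotides, and in contrast to the H19 sites it lay on the forward strand. H19 itself held no peak in its gene body and none within 1 kb of a start.

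Igf2, the fetal growth factor expressed from the paternal allele, had no peak in its gene body and none within 1 kb of a start. Instead 3 peaks lay upstream of it, before Ins2. The nearest, 4.45 kb from the Igf2 5' end, was weak, with a signal of 21.3, 12.4 in replicate 1 (rank 47800) and 7.95 in replicate 2 (rank 59068). The second had 199.5, with 102.2 in replicate 1 (rank 12957) and 96.3 in replicate 2 (rank 13278). The third had 158, with 82.0 in replicate 1 (rank 16523) and 75.4 in replicate 2 (rank 17117), and lay 3.67 kb from a start of Ins2. The order of the 3 was the same in both replicates. All 3 windows lay on the reverse strand, like those upstream of H19, and they are printed to set them beside the H19 sites.
Igf2 upstream, nearest (chr7:142671246-142671265): tggACAATAGAGGGCAGcac
Igf2 upstream, second (chr7:142672321-142672340): tgaCCACCAGATGTCAAgct
Igf2 upstream, farthest (chr7:142675853-142675872): cgtCCAGCAGAGGTCACcaa

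Only the third of these windows held a CpG, and only 1. Their matrix scores were at percentiles 49.0, 28.1 and 62.3, so the strongest of the 3 peaks had the lowest score.

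Ins2 encodes insulin, and in the annotation used its longest transcripts reach far upstream of the coding exons, over 64.7 kb. Within that span lay 5 peaks, none within 1 kb of an Ins2 start, with signals of 179, 103, 53.3, 264 and 171 from the gene end nearest to Igf2 outward. The peak of 264 had 143.6 in replicate 1 (rank 6974) and 121.7 in replicate 2 (rank 9183). The next peak outward was intergenic, with the noncoding gene Gm6471 as its nearest start at 15.6 kb, and had a signal of 187. Beyond it, a peak of 151 lay in an exon of the noncoding gene Gm39117 (ranks 17550 and 16789). The window of the intergenic peak and that of the Ins2 peak with a signal of 103 were the same 20 bases, tgaACAGCAGAGGGAGAcag, both in repeat-masked sequence. Within 100 bp on either side the pair was 62.7% identical, and 4 peaks of the whole list held this window, so it recurs in the genome.

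Th encodes tyrosine hydroxylase, which makes the precursor of the catecholamines, and its introns in GENCODE held the strongest peak of the domain. This peak, chr7:142919259-142919586, had a signal of 529.6 and ranked 128 of 57220, with 259.3 in replicate 1 (rank 203) and 270.7 in replicate 2 (rank 79). A second intronic peak of Th, chr7:142894719-142894992, had 355.03, with 181 in replicate 1 (rank 3086) and 173 in replicate 2 (rank 3182). It lay 1.74 kb from a Th start of GENCODE and 5.13 kb from the start in RefSeq. Between them lay a weak peak of 36.2 (ranks 40429 and 41061). This weak peak and the strongest one lay upstream of the RefSeq start, so they are intronic in GENCODE only. The windows of the stronger 2 of these Th peaks, printed because the strongest peak of the domain is among them, pointed toward each other.
Th intron, forward strand (chr7:142894854-142894873): ttaCCAGCAGGTGGCATcaa
Th intron, reverse strand (chr7:142919447-142919466): tggCCACATGGGGGCACttg

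Neither window held a CpG, and their scores were at percentiles 69.8 and 65.1. The strongest peak of the domain thus had no top-scoring window, but over the whole list the signal did not rise with the score throughout. The median signal of all peaks was 141.7 in the score bin of these windows and 67.0 in the highest of the 10 bins.

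Ascl2 encodes a transcription factor needed in the placenta and was 1 of 2 named genes with a promoter peak, meaning a summit no more than 1 kb from the start of an annotated transcript. The peak lay in its coding exon, 447 bp from an internal start and 0.994 kb from the 5' end, with a signal of 51.1, 27.7 in replicate 1 (rank 32771) and 24.3 in replicate 2 (rank 34258). Within 100 bp on either side of its summit lay 27 CpG dinucleotides, the most of any peak of the domain, and no window above the matrix threshold. A second peak, 10.8 kb from an Ascl2 start, had a signal of 12.6 and 9.72 in replicate 1 (rank 53944). In replicate 2 the nearest summit was 658 bp away.

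Between Ascl2 and Kcnq1, 10 peaks lay in 127.1 kb, and 8 of them were promoter peaks, against 20.5% of all peaks. The genes there are Tspan32 and Cd81, which encode tetraspanin membrane proteins, Tssc4, and Trpm5, which encodes a cation channel of taste cells. Of the 8 promoter peaks, 5 were near starts of 1 gene, Trpm5. Over the whole domain 21.7% of peaks were at promoters, so nothing is read from the share in this stretch. The second strongest peak of the domain lay in a Tspan32 exon, 187 bp from a start of the antisense gene Tspan32os, with a signal of 412.5 and ranks of 1493 in replicate 1 and 993 in replicate 2. The other 2 peaks, not at promoters, had 233 in an intron of Tspan32os (ranks 8620 and 12411) and 70.7 in an intron of the gene R74862 (ranks 26762 and 31252). The Tspan32 promoter itself had 22.6 (ranks 44739 and 60939), without a window above the threshold. Cd81 had a promoter peak of 51.9 in CpG-rich sequence, with 21 CpG dinucleotides within 100 bp of the summit (ranks 32304 and 34230). Trpm5 had 5 promoter peaks, of which 4 were near internal starts. The peak at its 5' end, 281 bp away, had a signal of 261 (ranks 8536 and 8585), and the strongest, in an intron, had 366.0 (ranks 2362 and 2932). Of the other 2 promoter peaks of Trpm5, both in introns, 1 had 207 (ranks 11622 and 13057) and 1 had 129 (ranks 18497 and 21330). Another, in a coding exon of Trpm5, was among the weakest of the domain, with 13.9 in the optimal list, rank 55992 in replicate 1 and rank 259502 in replicate 2. Tssc4 had none, with its closest summit 3.51 kb off.

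Of the 13 protein-coding genes with their 5' end in the interval, 4 (30.8%) had a promoter peak, Ascl2, Tspan32, Cd81 and Trpm5, against 36.2% of all protein-coding genes. The 9 without one were Igf2, Gm49394, which overlaps Igf2, Ins2, Th, Tssc4, Kcnq1, Cdkn1c, Slc22a18 and Phlda2. The share is close to the background, and nothing is read from it.

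Kcnq1, which encodes a potassium channel subunit, spans 320.7 kb and held 7 peaks, 6 of them at its 5' end. These 6 lay from 4.63 to 47.6 kb into the gene, all in introns, with signals of 45.2, 36.0, 200.2, 131, 83.1 and 331. The last and strongest had 167 in replicate 1 (rank 4374) and 164 in replicate 2 (rank 4054). The one of 36.0 differed most between the replicates, with 24.8 in replicate 1 (rank 34641) and 9.75 in replicate 2 (rank 52922).

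Over the following 309.8 kb, up to the first peak beyond Cdkn1c, only 1 peak was found, at the start of Kcnq1ot1. This antisense RNA is the one whose promoter serves as the control region of the Kcnq1 side. The summit lay 9 bp from its GENCODE start and 7 bp from its RefSeq start, in a noncoding exon, at chr7:143296398-143296681. Its signal was 24.5, with 14.8 in replicate 1 (rank 44150) and 8.52 in replicate 2 (rank 56841). The best window had a score at percentile 11.6, below the threshold, and 12 CpG dinucleotides lay within 100 bp of the summit. The promoter is shown as RefSeq gives it on GRCm38.p6, from 250 bases before to 50 after the start on the reverse strand (chr7:143296498-143296797), with its 9 CpG dinucleotides in capitals.
Kcnq1ot1 promoter: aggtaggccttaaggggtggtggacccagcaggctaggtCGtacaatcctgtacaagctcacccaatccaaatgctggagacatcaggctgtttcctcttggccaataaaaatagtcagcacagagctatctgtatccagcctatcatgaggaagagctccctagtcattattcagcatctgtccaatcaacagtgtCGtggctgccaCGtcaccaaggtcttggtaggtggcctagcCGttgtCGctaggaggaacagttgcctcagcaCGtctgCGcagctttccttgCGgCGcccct

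The stretches without a peak on either side of Kcnq1ot1's start were the longest of the domain, with 142.3 kb toward the Kcnq1 5' end and 167.3 kb toward Cdkn1c. Gaps at least this long make up 5.43% and 4.33% of all gaps between neighbouring peaks on autosomes, whose median is 14.3 kb, so they are long but not rare. The next longest, 61.4 kb between the outermost Ins2 peak and the intergenic peak beyond it, is matched or exceeded by 14.98% of gaps. The replicate lists, which hold many weak calls, listed 15 peaks in replicate 1 and 18 in replicate 2 in the 142.3 kb stretch, and 23 and 29 in the 167.3 kb stretch. The strongest of them had 5.98 in replicate 1 and 6.53 in replicate 2. In replicate 1 only 3.005% of matched optimal peaks had a lower signal than 5.98, and in replicate 2 only 4.41% had a lower one than 6.53.

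**Figure D3:**
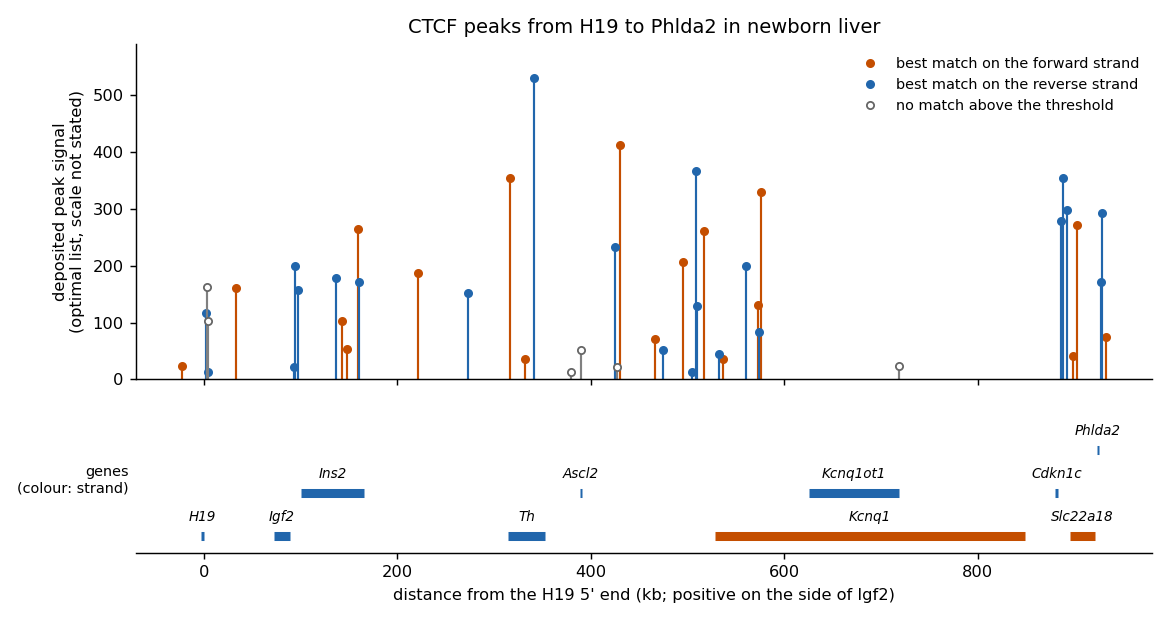
Deposited signal of the 46 optimal-list peaks by distance in kb from the H19 5' end, colored by the strand of the best matrix match, above the 10 named genes colored by their strand. The body of Kcnq1 past its first 47.6 kb carries only the peak of 24.5 at Kcnq1ot1, and Cdkn1c to Phlda2 carries 8.

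Beyond Kcnq1, 8 peaks lay in 96.1 kb around Cdkn1c, Slc22a18 and Phlda2, with a median signal of 275. Each had a matrix match, against 82.7% of all peaks. Cdkn1c encodes an inhibitor of cyclin-dependent kinases that restrains growth, Slc22a18 a transporter of the organic cation family, and Phlda2 a protein that limits placental growth, and all are known to be expressed mainly from the maternal allele. Between Cdkn1c and Slc22a18 lay 3 peaks, with signals of 278, 354.2 and 298. The first had 139.0 in replicate 1 (rank 7584) and 139.1 in replicate 2 (rank 6854) and lay 3.04 kb from the Cdkn1c 5' end. The second had 183 in replicate 1 (rank 2933) and 171 in replicate 2 (rank 3359). The third had 155 in replicate 1 (rank 5567) and 144 in replicate 2 (rank 6210). The second ranked above the third, and the third above the first, in both replicates. All 3 windows lay on the reverse strand and matched the consensus with at most 1 mismatch, as the printed sequences show beside those of H19.
Cdkn1c to Slc22a18, first (chr7:143464075-143464094): cggCCACCAGGGGGCAGcat
Cdkn1c to Slc22a18, second (chr7:143466493-143466512): tgaCCACCAGGGGGCAGaat
Cdkn1c to Slc22a18, last (chr7:143470155-143470174): tggCCAGCAGGCGGCGCcca

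Their scores were at percentiles 95.2, 82.5 and 61.6. Introns of Slc22a18 held a weaker peak of 41.7 (ranks 40905 and 35094), 1.76 kb from a start, and a stronger one of 272 (ranks 8281 and 6593), both over windows on the forward strand. Upstream of Phlda2, 3 peaks had signals of 172, 292 and 75.4. The first, 2.91 kb from a Phlda2 start, and the second, 3.76 kb from it, lay in repeat-masked sequence over windows on the reverse strand. The third, 8.01 kb away, had 48.5 in replicate 1 (rank 24294) and 27.2 in replicate 2 (rank 32446).

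As a whole, the domain held 47.5 peaks per Mb, against 25.6 on the rest of chromosome 7 and 22.6 on all autosomes. Its density was 1.85 times that of the rest of the chromosome (1.85 ± 0.164 for the replicates alone, SD, n = 2). The signal of its peaks ran from 12.2 to 529.6 with a median of 154.7, against a median of 71.2 over the whole list, and the median percentile was 70.1. By position, 10 peaks (21.7%) were at promoters, against 20.5% of all peaks, 3 (6.52%) in exons, against 5.17%, 18 (39.1%) in introns, against 40.5%, and 15 (32.6%) in intergenic sequence, against 33.8%. Peaks of 1 locus are neighbours and not independent, so no test of the density or the signal was made.

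A matrix match was found at 40 of the 46 peaks (87.0%), against 82.7% of all peaks. The 40 had a median signal of 166, against 37.8 for the 6 without one. Over the whole list the medians were 88.8 and 29.5. The 6 were the H19 sites at 2.63 and 3.65 kb, both peaks near Ascl2, and those at the Tspan32 and Kcnq1ot1 promoters. Of the 40 matched windows, 17 (42.5%) held a CpG, against 39.7% of all matched windows, and 7 (17.5%) were mostly repeat-masked, against 26.7%. The summit itself lay in repeat-masked sequence at 4 peaks (8.70%), against 22.4%. At least 10 CpG dinucleotides within 100 bp of the summit were found at 5 peaks (10.9%), against 11.3%. These 5 were the H19 peak at 2.16 kb, the Ascl2, Cd81 and Kcnq1ot1 promoter peaks and the strongest Kcnq1 peak. With the CTCF core consensus and at most 2 mismatches, 30 peaks (65.2%) had a match, against 71.2% of all peaks.

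Matched windows lay on the forward strand at 18 peaks and on the reverse strand at 22. Of the 38 neighbouring pairs of matched peaks at most 200 kb apart, 15 (39.5%) were on the same strand, against 52.8% on all autosomes. Pairs pointing toward each other numbered 11 (28.9%), against 23.2%, and pairs pointing apart 12 (31.6%), against 24.0%. The H19 sites at 2.63 and 3.65 kb are not in these counts. Contacts between sites were not measured.

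The replicates ranked the peaks of the domain much alike. Of the 46 peaks, 44 (95.7%) had a summit within 100 bp in both replicate lists, against 97.1% of all optimal peaks, and 41 (89.1%) were in the conservative IDR list, against 87.8%. The replicate lists hold 300000 peaks each, so a weak call can count as a match. With only the strongest 57220 peaks of each replicate, 41 were matched, and the share of all optimal peaks at that setting is not given here. The signals of the 44 had a Spearman's rho of 0.986 across peaks. This describes peaks that share their libraries and were kept by IDR, a method that favours ranks repeating between lists. The percentile of a peak among matched peaks differed by a median of 2.89 points between replicates, against 3.87 over the whole list. Among the 29 matched peaks with a signal of at least 100 the largest difference was 6.82 points. A difference over 10 points was found at 4 weaker peaks (9.09%), against 17.6% of all matched peaks, and these were the Kcnq1 peak of 36.0, the Tspan32 and Kcnq1ot1 promoter peaks and the outermost peak beyond Phlda2. All 4 were higher in replicate 1. The median percentile of the domain peaks was 70.1, and the whole list was not matched to them for signal. Nothing is therefore read from the smaller differences in the domain.

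**Figure D4:**
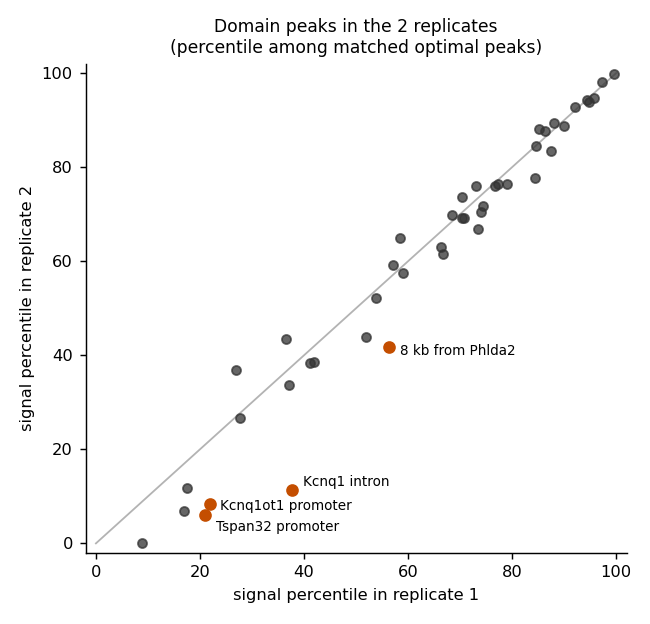
Percentile of the deposited signal in replicate 1 and replicate 2, among all optimal peaks matched in both, for the 44 matched domain peaks, with the line of equal percentiles. The 4 colored peaks differ by over 10 points, up to 26.4 for the Kcnq1 intron peak, and lie below the line.

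Beside other imprinted domains taken by the same rule, the domain had more peaks and a higher median percentile. It had 46 peaks in 967.6 kb (47.5 per Mb, median percentile 70.1). The Dlk1-Meg3-Dio3 domain on chromosome 12 had 20 in 868.3 kb (23.03 per Mb, median percentile 37.7), and the domain of Igf2r, Airn, Slc22a2 and Slc22a3 on chromosome 17 had 20 in 481.2 kb (41.6 per Mb, median percentile 40.5). The rest of their chromosomes had 25.6, 18.6 and 27.2 peaks per Mb, in the same order. A matrix match was found at 40, 18 and 17 of the peaks, and the matched window held a CpG at 17, 9 and 2. The highest signal was 529.6, 340.5 and 338.9. These 3 domains overlap widely in signal, and no test of the difference was made.

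**Figure D5:**
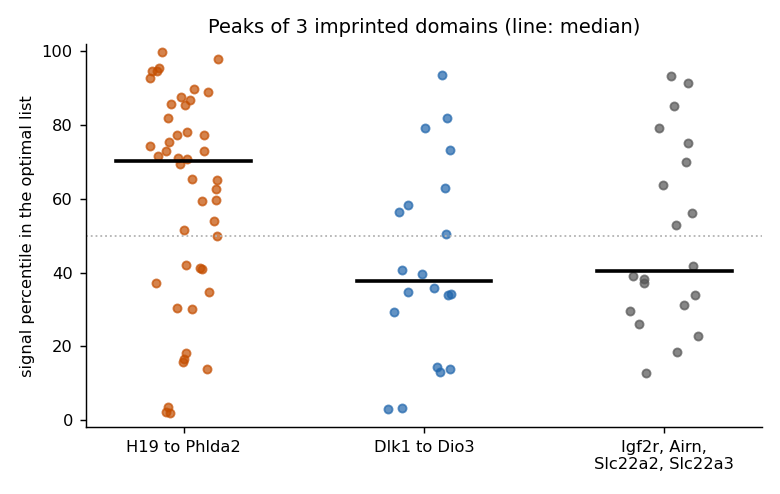
Percentile of the deposited signal in the optimal list for each peak of 3 imprinted domains, with the median as a line and percentile 50 dotted. The H19 to Phlda2 domain has its median at 70.1, against 37.7 and 40.5, and all 3 span most of the range.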

How the data were processed

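The authors deposited peak lists on mm10, per the labels, 1 for each replicate, 1 pooled, and the conservative and optimal IDR lists, per the text deposited with the samples. The replicate and pooled lists hold 300000 peaks each. The peak signal is the authors' deposited value on a scale that is not stated. The deposited −log10 q value stops at 5.03 and is shared by 88.4% of optimal peaks, and ranks here use the signal instead. The aligner, peak caller and thresholds were not given in the sources used here. Sequence was read from GRCm38.p6, whose chromosomes are those of mm10, and genes from GENCODE M21. RefSeq starts served as a second annotation for the 6 named genes found in its promoter table.

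A summit is the peak start plus the deposited offset, and summits within 100 bp were matched. The matrix of 20 positions (core of 14 and 3 bases on each side) was started from 21672 windows with at most 1 mismatch to the CTCF core consensus at peaks outside the domain. It was then re-estimated 2 times and tested on simulated data. A match is a score above the threshold that only 5.00% of windows displaced by 1 kb passed, within 50 bp of the summit, on either strand. Python 3.11.15, numpy 2.4.6, pandas 2.3.3 and pysam 0.24.0 were used. With 1 group of 2 replicates no test between groups was possible, and values are descriptions.

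The genes, the domain and the lists were chosen with earlier results of these data known. Named were the 10 genes with their promoter or nearest peak, other protein-coding genes with a promoter peak, the 5 strongest and 5 weakest peaks, peaks within 5 kb of a named gene's 5' end and the 3 longest gaps. Other peaks are given to account for all 46.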

Additional observations from a re-analysis of the deposited data

How the results depend on the processing

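The number of peaks in the domain stayed within 1.5 times the 46 of the optimal list under each alternative run. It was 43 in the conservative list, 31 in the stronger 28610 peaks, 43 to 49 with a replicate alone, 42 with no flank and 52 with a flank of 50 kb. The density relative to the rest of chromosome 7 was 2.41 in the stronger peaks and 1.73 to 1.96 with a replicate alone. Matrix matches numbered 25 at the threshold that 1% of displaced windows pass and 30 with the consensus. With a replicate alone they numbered 38 of 43 peaks without replicate 1 and 42 of 49 without replicate 2. The share over a whole single-replicate list is not given here. None of the 4 H19 sites passed that stricter threshold or had the consensus with at most 2 mismatches. In the whole list the stricter threshold lay between percentiles 46.9 and 47.9 of the best score per peak, so many other peaks fell below it. The consensus with at most 2 mismatches was found at 71.2% of all peaks. Genes with a promoter peak numbered 13 within 5 kb, so all of them, 1 in the stronger peaks, and 4 with either replicate alone. The share of all protein-coding genes at these settings is not given here, so nothing is read from these counts. The median percentile was 67.7 to 70.1 with a replicate alone, with 67.7 without replicate 2. Neighbouring matches on the same strand numbered 9 of 27 in the stronger peaks, 13 of 36 without replicate 1 and 17 of 40 without replicate 2. The share over all autosomes at these settings is not given here, so nothing is read from these counts. The cause of these shifts was not tested. No paired analysis was possible because the series has 1 group. Depth is unknown, so whether a weak or missing peak is below detection cannot be told.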

Other observations

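The conservative list held 2 peaks of the domain with no optimal summit within 100 bp. One lay 1.12 kb upstream of the H19 5' end, between H19 and its 4 upstream peaks (chr7:142579121-142579404), with a signal of 8.77 in that list. The nearest replicate summits were 4 bp away in replicate 1, with a signal of 9.46, and over 100 bp away in replicate 2, with a signal of 7.99. The other lay 202 bp from an optimal peak in Ins2 and had 4.86 in the conservative list.

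At the stricter matrix threshold, the sequence of the whole domain held 50 separate matches, of which 25 lay inside an optimal peak. The same share over the rest of the genome is not given here, so nothing is read from these counts.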
